A study of Homo sapiens with 12 samples.

Results

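HOTAIRM1 knockdown cells were compared with control cells before any treatment, on 6 of the 12 expression arrays of a study of NB4 cells. NB4 is a human acute promyelocytic leukemia line, arrested at the promyelocyte stage, that matures toward granulocytes when given all-trans retinoic acid (ATRA). The members were chosen by their labels alone: every array of untreated cells, 3 knockdown and 3 control. The control arrays were wild type NB4 cells (1 array) and cells with a scrambled shRNA (replicates 1 and 2). The knockdown arrays were cells with HOTAIRM1 shRNA1 (replicates 1 and 2) and cells with HOTAIRM1 shRNA2, a different construct (1 array). The remaining 6 arrays hold the same 6 kinds of sample after 96 hours of 0.5 uM ATRA. They enter the fit to estimate the spread, show which genes set the untreated state apart, and give the same difference after ATRA for the cholesterol genes. All cells were grown in the same serum-containing medium. Every line with an shRNA was made with a pLKO.3G lentiviral vector, selected by its GFP marker and grown from single cells on soft agar, whereas the wild type cells carried no vector. The duplicates are called biological by the labels, which do not say whether they are separate clones. The p values below therefore cover only the variation among these samples, some of it possibly technical, and the line and the knockdown cannot be told apart.

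HOTAIRM1 is a long noncoding RNA made within the HOXA cluster, and its level rises when myeloid cells mature. HOXA genes encode transcription factors that act in early blood cells. A promyelocyte is a committed granulocyte precursor that fills its primary granules with proteases and still divides, and in promyelocytic leukemia a fusion of the retinoic acid receptor holds cells there until retinoic acid is given. The arrays have no probe set named for HOTAIRM1 alone, and the extent of the knockdown was not examined. HOXA2 was the only HOXA gene measured by a probe set of its own. It lay at 6.79 in wild type, 6.95 and 6.84 in scrambled, 6.90 and 6.99 in shRNA1 and 6.68 in shRNA2 cells, and the groups overlapped. Of 8 measured genes among HOXA2, HOX cofactors and neighbours of the cluster, 4 had a positive and 4 a negative difference between knockdown and control.

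Values are log2 expression levels in arbitrary units. The 6 untreated arrays had medians of 7.73 to 7.76 over all probe sets. Pearson's r between them, across the 18404 genes with 1 probe set kept for each, lay between 0.975 and 0.996. No pair of arrays shared more than 8 identical values. The number of arrays limits the precision of each value.

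The untreated array of scrambled replicate 2 stood apart from the other 5. It lay at least 1 above their median for 222 genes and at least 1 below it for 59 genes. For the other 5 untreated arrays, compared in the same way, these counts were 9 to 37 and 6 to 69. In the wild type pair of arrays, 618 genes were at least 1 higher and 1141 at least 1 lower with ATRA. Leaving wild type cells out, scrambled replicate 2 was the highest of the 5 remaining untreated arrays in 61.5% of the 618 genes and the lowest in 58.4% of the 1141 genes. The corresponding shares were 17.2% and 21.3% for scrambled replicate 1 and 11% or less for each of the 3 knockdown arrays. Its median shift from the other 4 arrays was 0.41 over the higher genes, whose median change in the wild type pair was 1.47. TGM2, a transglutaminase induced by retinoic acid, lay at 12.86 in scrambled replicate 2 and between 7.93 and 8.30 in the other untreated arrays. The peptidylarginine deiminase PADI2 lay at 11.04 there and between 7.28 and 7.73 elsewhere, and the chemokine CCL24 at 10.96 against 7.32 to 7.59. In the other direction ANXA2, a membrane-binding annexin, lay at 7.28 there and between 8.39 and 10.01 elsewhere. Some of the lowest genes of this array went against the change with ATRA. CXCL10, CYP1B1 and GPR141 lay at -2.03, -1.89 and -1.67 from the median of the other 5 arrays. With ATRA, over both kinds of cells, they changed by 4.03, 1.05 and 1.45 (limma adjusted p = 0.000281, 0.018 and 0.000636). TSPAN2, at -1.73, changed by -1.01 (limma adjusted p = 0.0416). For ANXA2, GPX7, GPR84 and ANXA2P2, also low there, the adjusted p was above 0.05. Because this array is 1 of the 3 controls, the main results, and most values of single genes and lists, are given with and without it.

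**Figure D1:**
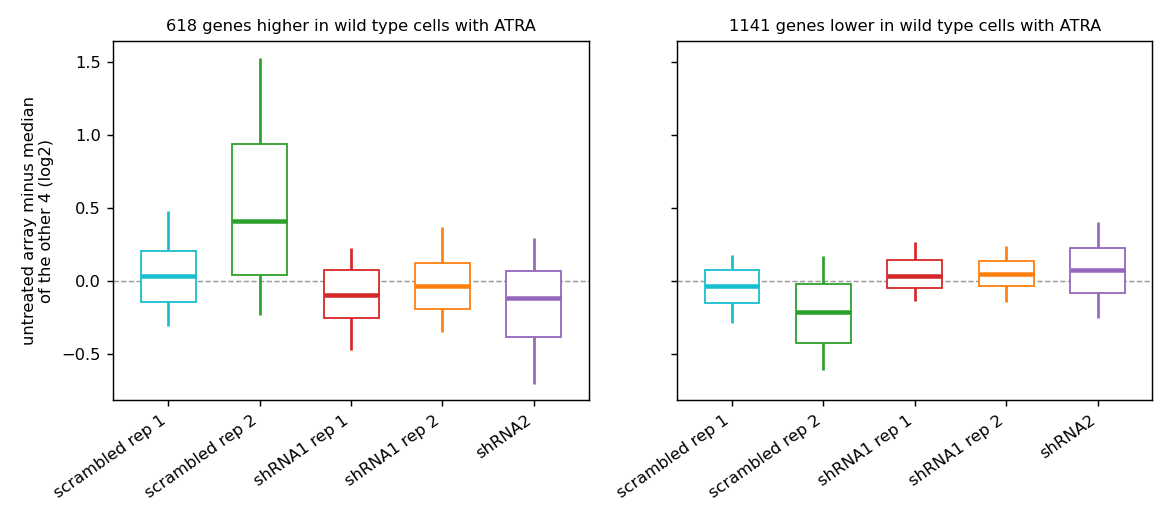
Level of each untreated array minus the median of the other 4 (log2), over the 618 genes at least 1 higher (left) and the 1141 genes at least 1 lower (right) with ATRA in wild type cells, whose own array is left out. Boxes span the quartiles with the median as a thick line, and whiskers run from the 10th to the 90th percentile; scrambled replicate 2 is shifted by a median of 0.41 on the left and -0.21 on the right.

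No single gene passed the test between untreated knockdown and control cells. Among the genes with no overlap between the groups, the crystal protein CLC and ALOX5AP, which serves leukotriene synthesis, had the most negative differences, and the heparan sulfate proteoglycan SDC2 the most positive. INSIG1, the brake on sterol synthesis, had the smallest p, and 22 of 25 measured genes of cholesterol synthesis and uptake had a negative difference. In the main test, a limma fit over all 12 arrays with Benjamini-Hochberg adjustment over 18404 genes, an adjusted p under 0.05 was reached by 0 genes higher (0%) and 0 genes lower (0%) in knockdown cells, and the smallest adjusted p was 0.999. Without scrambled replicate 2 the counts were also 0 (0%) and 0 (0%). At an unadjusted p under 0.05 there were 299 higher genes (1.62%) and 428 lower genes (2.33%), together 727. That total is less than a share of 0.05 of the 18404 genes, which the threshold itself gives on average when no gene differs. Without scrambled replicate 2 there were 167 (0.907%) and 261 (1.42%), together 428, of which 260 were shared with the 727, all 260 with the same sign. The 428 also lie below that share, and both fits use the same remaining arrays. The total was 1495 without scrambled replicate 1, above that share, and 478 without shRNA2, below it. A difference of at least 1 was found for 3 higher genes (0.0163%) and 35 lower genes (0.19%), and without scrambled replicate 2 for 3 (0.0163%) and 9 (0.0489%). The 3 knockdown arrays all lay above the 3 controls in 690 genes (3.75%) and below them in 743 genes (4.04%). With 2 controls, which makes non-overlap easier to reach, these counts were 1199 (6.51%) and 1679 (9.12%). The median standard error of a difference was 0.10 and its 95% interval reached a median of 0.22 to either side. For the typical gene, a difference smaller than that could not be told from 0 even before adjustment. To pass the adjusted test a difference had to be larger still, as INSIG1 at -0.80 (SE 0.14) did not pass (limma adjusted p = 0.999).

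Genes of cholesterol synthesis and uptake lay lower in the knockdown cells on balance. Cells make cholesterol from acetyl-CoA through mevalonate, squalene and lanosterol. The SREBP transcription factors, escorted by SCAP, switch the pathway on when sterol is scarce, and INSIG proteins hold SCAP back when it is plentiful. The list was drawn up with the result for INSIG1 already known, so its direction is a description. Of 31 listed genes 25 were measured, none of which was called, and their median difference was -0.21, against 0.0029 over all genes. Of these, 8 had a negative difference with an unadjusted p under 0.05 (background 2.33%) and 0 a positive one. Groups did not overlap for 7 lower members (background 4.04%) and for 1 higher member, SCAP. Without scrambled replicate 2 the median was -0.23, 21 members were negative and 10 had an unadjusted p under 0.05 (background 1.42%). The median was -0.14 without scrambled replicate 1, with 18 members negative. The lists of oxidase, autophagy and lysosome, apoptosis and interferon genes, described below, then had lower medians (-0.23, -0.20, -0.19 and -0.15). Members of 1 pathway tend to vary together between cultures, so they are not independent counts.

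INSIG1 (probe set 8137526) lay at 10.89 in wild type and 10.94 and 11.34 in scrambled cells, and at 10.46 and 10.33 in shRNA1 and 9.98 in shRNA2 cells. All 3 knockdown arrays were below all 3 controls, with shRNA2 the lowest. The difference was -0.80 (SE 0.14, 95% interval -1.11 to -0.48, limma unadjusted p = 0.000143, adjusted p = 0.999), and -0.65 without scrambled replicate 2. LSS, which closes squalene epoxide into lanosterol, lay at 9.52, 9.64 and 9.43 in wild type and both scrambled arrays and at 9.29, 9.26 and 9.20 in both shRNA1 arrays and shRNA2. Its groups did not overlap either, and its difference was small, at -0.28 (SE 0.08; -0.33 without scrambled replicate 2). STARD4, a carrier of sterol within the cell, lay at 8.81, 8.56 and 9.19 in controls and at 8.47, 8.24 and 8.34 in knockdown cells, in the same order of arrays. The highest value was that of scrambled replicate 2, and the difference of -0.50 (SE 0.15) was -0.33 without it. INSIG1, also highest in scrambled replicate 2, and STARD4 were called higher with ATRA, by 0.44 and 0.93 (limma adjusted p = 0.0043 and 3.89e-05). LSS changed by 0.06 and was not called. Of the 25 measured cholesterol genes, 9 were called higher with ATRA (background 15.8%) and 4 lower (background 22.8%).

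Further members are named after their values were seen. DHCR7, which makes cholesterol from its last precursor, lay at 11.86, 11.93 and 11.51 in controls and at 11.40, 11.54 and 11.01 in knockdown cells. Here scrambled replicate 2 was the lowest control and gave the only overlap, so the difference of -0.45 (SE 0.14) became -0.57 without it. HMGCS1, the synthase at the entry to the mevalonate pathway, lay at 10.44, 11.44 and 10.02 in controls and at 9.77, 10.11 and 10.38 in knockdown cells. Its groups overlapped and its difference went from -0.55 (SE 0.31) to -0.85 without scrambled replicate 2, with scrambled replicate 1 as the high value. The mevalonate enzymes MVD and MVK and the thiolase ACAT2 had differences of -0.31, -0.25 and -0.25 (-0.30, -0.23 and -0.29 without scrambled replicate 2), each with no overlap between groups. Of the transcription factor genes themselves, SREBF1 had a difference of -0.29 (-0.13 without scrambled replicate 2) and SREBF2 of -0.024 (-0.00094), both with overlap. SCAP had a difference of 0.056 and the cholesterol exporter ABCA1 of -0.010 (0.076 without scrambled replicate 2). After ATRA, on other arrays, 12 members had a positive and 13 a negative difference between knockdown and control, with a median of -0.0079 and 0 called (background 0.0543% higher and 0.00543% lower over all genes). INSIG1 differed by -0.19 there (adjusted p = 0.406). The difference between the 2 states passed the test for no gene, with a smallest adjusted p of 0.27.

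**Figure D2:**
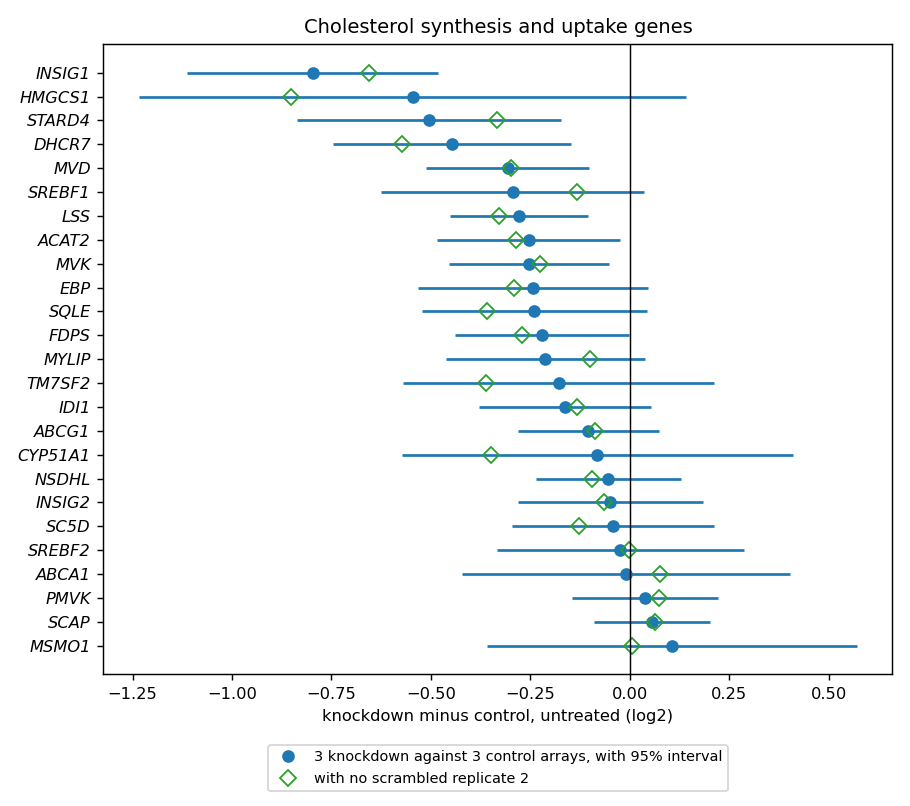
Knockdown minus control before ATRA (log2) for the 25 measured genes of cholesterol synthesis and uptake. Circles with 95% intervals are 3 knockdown against 3 control arrays and open diamonds leave out scrambled replicate 2; 22 circles lie below 0, from INSIG1 at -0.80 upwards.

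The 250 bases before the start of 3 of these genes are shown because the SREBP and NF-Y factors known to drive this pathway act close to the start. They are reference sequences (RefSeq, GRCh38.p14) on the gene's strand, ending next to the start, and capitals mark each match to the CCAAT box recognised by NF-Y, on either strand (read as ATTGG on the other). INSIG1 lies at chr7:155297628-155297877 (plus strand), LSS at chr21:46228775-46229024 (minus strand) and DHCR7 at chr11:71448394-71448643 (minus strand).
INSIG1: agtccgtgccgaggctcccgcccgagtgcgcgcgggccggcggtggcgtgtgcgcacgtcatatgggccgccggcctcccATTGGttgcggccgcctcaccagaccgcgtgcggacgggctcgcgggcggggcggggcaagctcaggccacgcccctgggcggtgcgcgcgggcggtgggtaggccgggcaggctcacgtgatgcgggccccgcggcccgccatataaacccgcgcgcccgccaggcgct
LSS: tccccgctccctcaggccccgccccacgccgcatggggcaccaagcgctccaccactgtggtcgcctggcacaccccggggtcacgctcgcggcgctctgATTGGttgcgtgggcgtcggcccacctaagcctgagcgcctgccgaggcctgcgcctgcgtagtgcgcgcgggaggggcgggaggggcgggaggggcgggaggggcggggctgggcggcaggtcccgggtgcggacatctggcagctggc
DHCR7: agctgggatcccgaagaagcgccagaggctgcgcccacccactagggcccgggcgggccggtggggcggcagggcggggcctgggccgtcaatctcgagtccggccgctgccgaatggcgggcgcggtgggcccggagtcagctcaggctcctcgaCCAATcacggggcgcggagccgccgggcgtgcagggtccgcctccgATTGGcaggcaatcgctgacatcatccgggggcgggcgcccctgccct
INSIG1 and LSS each hold 1 such match and DHCR7 holds 2. Of the 22 list members with a promoter in the table, 15 (68.2%) held a CCAAT box, against 34.4% of 14230 measured genes and 33% of all 27305 promoters. The letters TCACNCCAC of the sterol regulatory element, searched on both strands, occurred in 1 member (4.55%), SREBF2, against 0.871% of measured genes. Both motifs were searched separately, and a match to one can share its last base with the other. The matches are a description of these letters, not of binding.

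The most negative difference without overlap was that of CLC. This gene, which encodes the protein of Charcot-Leyden crystals in eosinophils and basophils, lay at 9.76 in wild type, 10.91 and 8.49 in scrambled, 7.20 and 8.11 in shRNA1 and 6.50 in shRNA2 cells. Scrambled replicate 2 was the lowest control here, still above every knockdown array. The difference was -2.45 (SE 0.67, 95% interval -3.93 to -0.98), and -3.07 without that array. EPX, the eosinophil peroxidase, lay at 9.94, 12.01 and 8.72 in wild type and both scrambled arrays and at 9.16, 9.11 and 8.60 in both shRNA1 arrays and shRNA2. It overlapped through scrambled replicate 2, and its difference of -1.27 (SE 0.77) was -2.02 without it, with scrambled replicate 1 as the high value. PRG2 and RNASE2, which also encode eosinophil granule proteins, overlapped, with differences of -0.34 and 0.11, and of -0.21 and -0.12 without scrambled replicate 2.

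ALOX5AP, the 5-lipoxygenase activating protein, lay at 10.57 in wild type, 9.56 and 13.16 in scrambled, 9.20 and 8.81 in shRNA1 and 8.03 in shRNA2 cells. All knockdown arrays were below all controls, but the high control value was that of scrambled replicate 2. The difference was -2.42 (SE 0.66), and -1.39 without that array. CD52, a small surface glycoprotein of lymphocytes and monocytes, lay at 9.37, 8.95 and 11.58 in controls and at 8.31, 8.83 and 7.79 in knockdown cells. Its difference was -1.66 (SE 0.52), and -0.85 without scrambled replicate 2. ICAM1, the adhesion partner of beta 2 integrins, lay at 10.12, 9.92 and 11.91 in controls and at 9.68, 9.61 and 8.41 in knockdown cells, a difference of -1.42 (SE 0.45; -0.79 without scrambled replicate 2). For FGR, a Src-family kinase of myeloid cells, CXCR5, a chemokine receptor, and PADI2 the differences of -1.39, -1.60 and -1.35 became -0.45, -0.43 and -0.24 without that array. ALOX5AP, CLC, CD52, ICAM1, FGR, CXCR5 and PADI2 were all called higher with ATRA over both kinds of cells (limma adjusted p from 2.05e-05 to 0.0376), a comparison that shares the untreated arrays.

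Other genes kept most of their difference without scrambled replicate 2. GPR34, a receptor for lysophosphatidylserine, lay at 5.58, 5.34 and 6.19 in controls and at 4.66, 4.73 and 4.30 in knockdown cells. Its difference was -1.14 (SE 0.25; -0.89 without that array), and it rose with ATRA by 3.80. IL18RAP, a subunit of the interleukin 18 receptor, lay at 8.88, 8.46 and 8.82 in controls and at 7.88, 8.30 and 6.22 in knockdown cells. Much of its difference of -1.25 (SE 0.52; -1.20 without scrambled replicate 2) lay in the shRNA2 array. ITM2A, a membrane protein, lay at 7.24, 9.11 and 7.38 in controls and at 6.16, 6.39 and 6.76 in knockdown cells, a difference of -1.47 (SE 0.47; -1.74 without scrambled replicate 2) with scrambled replicate 1 as the high value. ROR2, a receptor kinase for Wnt5a, lay at 8.32, 8.81 and 8.84 in controls and at 7.87, 8.03 and 7.86 in knockdown cells, a difference of -0.74 (SE 0.14; -0.64). The sugar transporter SLC50A1 (-0.35, SE 0.07; -0.39) and the protocadherin PCDHB4 (-0.62, SE 0.12; -0.52) also did not overlap. PCDHB4 belongs to a family with similar sequences, and 11 of its 16 measured genes had a negative difference, with a median of -0.027.

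**Figure D3:**
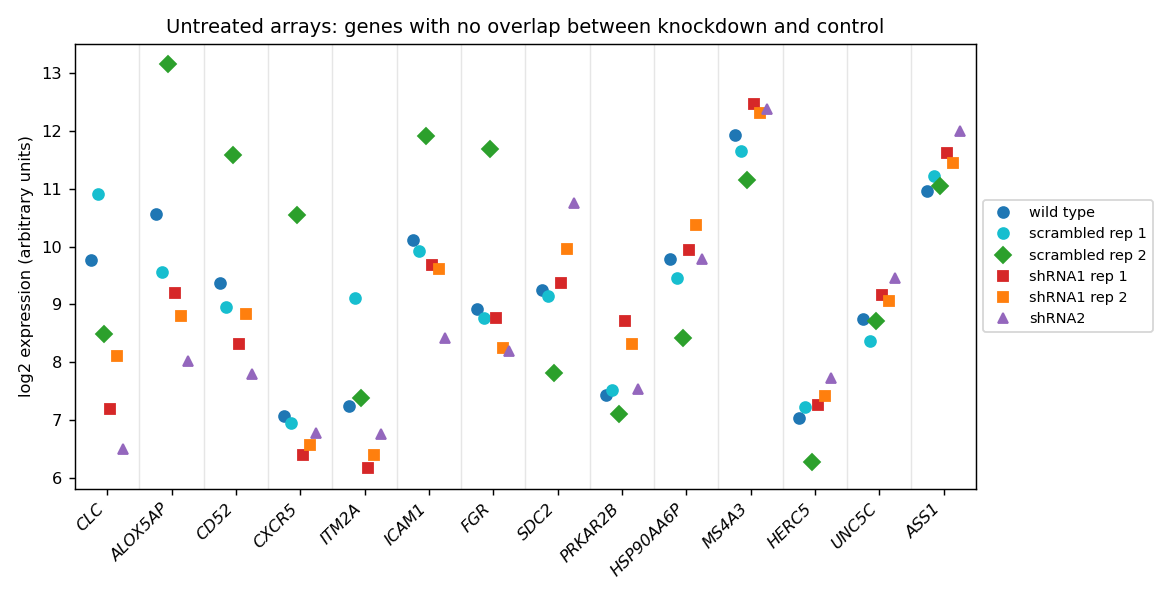
Log2 expression in the 6 untreated arrays for 14 genes whose knockdown and control arrays do not overlap, the 7 most negative and the 7 most positive differences in order. Each symbol is 1 array; scrambled replicate 2 (green diamonds) is the highest value for ALOX5AP, CD52, CXCR5, ICAM1 and FGR and the lowest for SDC2, PRKAR2B, HSP90AA6P, MS4A3 and HERC5.

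Positive differences without overlap were smaller. SDC2, or syndecan 2, lay at 9.25 in wild type, 9.14 and 7.82 in scrambled, 9.37 and 9.95 in shRNA1 and 10.75 in shRNA2 cells. The lowest value was that of scrambled replicate 2 and the gap between the groups was narrow. Its difference was 1.29 (SE 0.39), and 0.83 without that array. PRKAR2B, a regulatory subunit of protein kinase A, lay at 7.44, 7.52 and 7.10 in controls and at 8.71, 8.31 and 7.54 in knockdown cells. Both shRNA1 arrays were well above the controls and shRNA2 was just above them, for a difference of 0.83 (SE 0.26; 0.71 without scrambled replicate 2). ASS1, which makes argininosuccinate in arginine synthesis, lay at 10.97, 11.23 and 11.04 in controls and at 11.62, 11.45 and 11.99 in knockdown cells, a difference of 0.61 (SE 0.16; 0.59). The netrin receptor UNC5C (0.62, SE 0.25; 0.67) and CPA6, a carboxypeptidase (0.59, SE 0.13; 0.49), also did not overlap, with the value without scrambled replicate 2 given last. PDP1, the phosphatase that activates pyruvate dehydrogenase, lay at 8.85, 9.11 and 8.79 in controls and at 9.27, 9.37 and 9.73 in knockdown cells, a difference of 0.53 (SE 0.12; 0.47). The GTPase RAB6B had an even knockdown level, at 7.98, 7.94 and 7.99, against 7.58, 7.54 and 7.69 in controls (0.36, SE 0.08; 0.41). The interferon-induced ligase HERC5 had a difference close to its SE (0.63, SE 0.61; 0.34 without scrambled replicate 2). The GTPase RAB38 (0.58, SE 0.23; 0.49), the unplaced transcript LOC285097 (0.56, SE 0.18; 0.46) and ABITRAM (0.35, SE 0.087; 0.29) were further named genes in this direction. So were the uncertain pseudogene HSP90AA6P (0.81, SE 0.33; 0.41) and olfactory receptor OR2T10 (0.36, SE 0.075; 0.37). Much of the difference of RAB38 lay in the shRNA2 array, at 10.34 against 9.41 and 9.49 in shRNA1 cells. Without shRNA2 the RAB38 difference was 0.28.

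Genes that mark promyelocytes were checked in the untreated arrays against the labelled cell type. Relative to these arrays, ATRA raised 2917 genes (15.8%) and lowered 4198 (22.8%) at an adjusted p under 0.05. The quartiles of all gene levels were 6.90, 8.10 and 9.43, and levels of different genes are not compared here because their probes differ. MPO, the myeloperoxidase of primary granules, lay between 13.51 and 13.81 in all 6 untreated arrays. PRTN3, the protease myeloblastin, lay between 12.66 and 13.49, and AZU1, or azurocidin, between 10.39 and 11.03. PRSS57, another primary granule protease, lay between 10.12 and 10.33 and had a log2 change of -1.06 with ATRA (limma adjusted p = 1.52e-05). ANPEP, the myeloid surface peptidase CD13, lay between 11.92 and 12.74 and changed by -1.64 (adjusted p = 5.09e-05). ELANE, the neutrophil elastase, lay between 8.99 and 9.35. CD33 and HLA-DRA had no probe set of their own and were not analysed here. Of 17 measured granule genes ATRA raised 4 and lowered 5, and of 13 surface markers it raised 4 and lowered 3. Among those raised were SERPINB1, on the granule list, by 1.50 (limma adjusted p = 0.013), and 3 surface markers. These were CSF3R, CD44 and CD38, by 1.11, 1.01 and 0.80 (limma adjusted p = 0.00674, 6.14e-05 and 0.0092). For MPO, PRTN3, AZU1, PRSS57, ELANE and ANPEP the knockdown difference lay between -0.21 and 0.14, within 1 SE for each, and between -0.12 and 0.09 without scrambled replicate 2.

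A few granule genes differed more between knockdown and control. CTSG, the protease cathepsin G, lay at 9.98 in wild type, 8.03 and 8.91 in scrambled, 10.51 and 9.57 in shRNA1 and 11.45 in shRNA2 cells. Wild type cells lay within the knockdown range, so the groups overlapped, with a difference of 1.53 (SE 0.49; 1.50 without scrambled replicate 2). MS4A3, a membrane protein of granulocyte precursors, lay at 11.93, 11.65 and 11.15 in controls and at 12.47, 12.31 and 12.37 in knockdown cells. Its groups did not overlap and the knockdown arrays were close together, with a difference of 0.81 (SE 0.35; 0.59). CST7, a cathepsin inhibitor, lay at 11.60, 10.60 and 10.54 in controls and at 11.51, 11.57 and 12.02 in knockdown cells, a difference of 0.78 (SE 0.23; 0.60), with wild type again within the knockdown range. CTSG, MS4A3 and CST7 all fell with ATRA, with log2 changes of -1.76, -1.16 and -2.56 (adjusted p = 0.00144, 0.0028 and 2.66e-06). The tetraspanin CD63, also of granules, went the other way, at 9.11, 9.09 and 9.15 in controls and 8.80, 8.70 and 8.99 in knockdown cells (-0.28, SE 0.09; -0.27). Over the 17 granule genes 11 differences were positive and 6 negative, 3 were positive and 1 negative at an unadjusted p under 0.05 (background 1.62% and 2.33%), and the median was 0.079 (0.064 without scrambled replicate 2).

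On the list of retinoid metabolism and targets no gene of the 17 measured was free of overlap (background 3.75% higher and 4.04% lower). So short a list would hold few such genes at those shares. Without scrambled replicate 2, 1 higher member was free of overlap (background 6.51%) and no lower member (9.12%). For DHRS3, ASB2 and TGM2 scrambled replicate 2 lay above the rest. DHRS3, which turns retinal back into retinol, lay at 8.26, 8.01 and 11.02 in controls and at 8.08, 7.87 and 7.80 in knockdown cells. ASB2, a ubiquitin ligase subunit induced by retinoic acid, lay at 7.79, 6.95 and 10.01 in controls and at 7.36, 7.17 and 6.80 in knockdown cells. Without scrambled replicate 2 the differences of DHRS3, ASB2 and TGM2 went from -1.18, -1.14 and -1.68 to -0.22, -0.26 and -0.13. Over the 17 measured genes of retinoid metabolism and targets the median went from -0.051 to 0.0056. Among the integrins, ITGAM, the alpha M subunit, lay at 8.36, 8.56 and 10.16 in controls and at 8.02, 8.40 and 7.31 in knockdown cells, and ITGAX, which pairs with the same beta subunit, at 8.31, 8.38 and 9.95 and at 7.85, 7.95 and 7.81. ITGAX did not overlap with or without scrambled replicate 2, but its difference of -1.01 was -0.47 without it, and that of ITGAM went from -1.12 to -0.55. The 17 measured integrins had a median of -0.11, and -0.038 without that array. The transcriptional regulators ID2 (-1.22) and CEBPB (-0.91) were at -0.68 and -0.30 without it, and the 24 myeloid transcription factors had medians of -0.015 and 0.024.

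Medians of several other lists depended on a single scrambled array. Of 14 measured oxidase subunits and neutrophil receptors, 13 were called higher with ATRA at an adjusted p under 0.05 (background 15.8%). The list had a median of -0.16 (-0.23 without scrambled replicate 1), and 0.040 without scrambled replicate 2. Medians for the 28 interferon response genes were -0.13 and -0.048, for 28 apoptosis genes -0.10 and -0.019 (-0.19 without scrambled replicate 1), for 28 autophagy and lysosome genes -0.098 and -0.054 (-0.20 without scrambled replicate 1) and for 25 chemokines and cytokines -0.10 and -0.086. Of 23 ribosome biogenesis genes, 22 were called lower with ATRA (background 22.8%). They had 22 positive differences between knockdown and control and a median of 0.13, and 17 positive differences and a median of 0.035 without scrambled replicate 2. Of 39 measured genes of G2 and mitosis 32 had a positive difference with and without that array, with medians of 0.072 and 0.10. Without scrambled replicate 1, however, 19 were positive and 20 negative, with a median of -0.0012, and wild type minus scrambled cells had a median of 0.12 over these genes. CENPE, a motor of the mitotic spindle, lay at 9.13, 8.74 and 8.89 in controls and at 9.36, 9.28 and 9.53 in knockdown cells (0.47, SE 0.25; 0.46 without scrambled replicate 2). Of 44 S phase genes, 43 were called lower with ATRA (background 22.8%). They had 23 positive and 21 negative differences between knockdown and control and a median of 0.0040, and of -0.0088 without scrambled replicate 2. Among 23 G1 cyclins and inhibitors with a median of 0.029, the kinase CDK6 lay at 8.79, 8.57 and 8.61 in controls and at 9.60, 8.71 and 9.32 in knockdown cells (0.56, SE 0.20; 0.53). No member of any list was called. Median differences of the 18 secondary and tertiary granule genes (0.0026), 16 coagulation and fibrinolysis genes (-0.016), 13 genes of the microRNA machinery (0.054), 17 Polycomb and Trithorax genes (0.0073), 10 housekeeping genes (-0.011) and 340 olfactory receptor genes (-0.0081) were all within 0.06 of 0. Without scrambled replicate 2 they were -0.016, 0.0064, 0.011, 0.066, -0.017 and -0.018 in the same order.

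**Figure D4:**
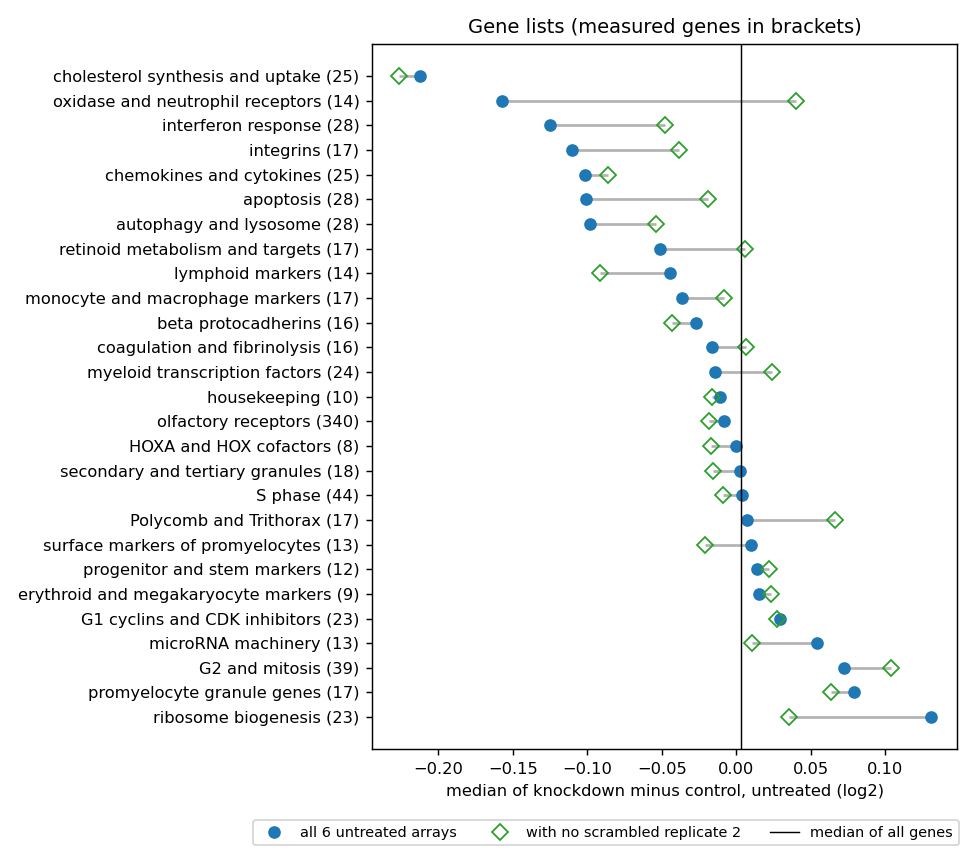
Median of knockdown minus control before ATRA (log2) for each gene list, with the number of measured genes in brackets. Filled circles use all 6 untreated arrays, open diamonds leave out scrambled replicate 2 and the vertical line is the median of all genes. The cholesterol genes lie lowest with both (-0.21 and -0.23), while the oxidase genes move from -0.16 to 0.040. Without scrambled replicate 1, which is not drawn, the cholesterol genes were not lowest (-0.14, against -0.23 for the oxidase genes).

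Markers of other blood cells were compared between the groups as well. Summed over 17 monocyte and macrophage markers, log2 levels ran from 125.0 to 129.1 in controls and from 125.4 to 126.6 in knockdown cells. For 14 lymphoid markers the sums were 105.8 to 108.4 and 104.0 to 106.7, for 9 erythroid and megakaryocyte markers 65.23 to 65.75 and 64.98 to 65.53, and for 12 progenitor and stem markers 79.77 to 80.66 and 79.53 to 80.46. The ranges overlapped for all 4 lists, and none of the members was called. The arrays give no true zero, but the monocyte receptors CD14 (7.12 to 7.37) and CD163 (6.16 to 6.31), the B cell gene MS4A1 (5.27 to 5.72), the globin HBB (6.82 to 6.98) and the stem cell marker CD34 (6.78 to 7.01) varied little over the 6 arrays. Other members of these lists varied more. CD79A, of the B cell receptor, lay at 10.91 in scrambled replicate 2 and between 7.87 and 8.57 elsewhere. ITGA2B, on the erythroid and megakaryocyte list, ran from 7.82 to 9.11 over the 6 arrays. NKG7, on the lymphoid list, ran from 11.02 to 11.76, and CCR2, on the monocyte list, from 5.54 to 6.15. In such bulk RNA, fewer cells of a type and less RNA per cell cannot be told apart. Whether the marker levels bear on the other differences was not tested.

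The constructs were then compared with separate controls, shRNA1 with scrambled cells (2 arrays each) and shRNA2 with wild type cells (1 array each), so that no untreated array was shared. The lone arrays are assumed to vary like the duplicated ones. With shRNA1, limma called 0 genes higher (0%) and 0 lower (0%), with a smallest adjusted p of 0.274, and 12 genes were at least 1 higher (0.0652%) and 53 at least 1 lower (0.288%). With shRNA2 it called 0 higher (0%) and 1 lower (0.00543%), and 47 were at least 1 higher (0.255%) and 91 at least 1 lower (0.494%). Between the kinds of control, wild type minus scrambled, 0 were called higher (0%) and 0 lower (0%), with 7 at least 1 higher (0.038%) and 27 at least 1 lower (0.147%). Of the genes that differed by at least 1, 2 were higher and 11 lower with both constructs, which is 20% of the 65 of shRNA1 and 9.42% of the 138 of shRNA2, and 5 went opposite ways. With scrambled replicate 1 as the only control of shRNA1, 2 were higher and 2 lower with both of 37 and 138, and 14 went opposite ways.

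CTSG and SDC2 were higher by at least 1 with both constructs, by 1.56 and 1.19 with shRNA1 and by 1.48 and 1.50 with shRNA2. The kinds of control differed as well, with wild type minus scrambled at 1.505 for CTSG and 0.78 for SDC2. Against scrambled replicate 1 alone, the shRNA1 differences were 2.0 for CTSG and 0.52 for SDC2, which is then under 1. ALOX5AP (-2.35 and -2.54), CLC (-2.05 and -3.27), CD52 (-1.70 and -1.58) and ICAM1 (-1.27 and -1.71) were lower with both. Of these, against scrambled replicate 1 alone, CLC differed by -3.26 with shRNA1, but ALOX5AP by -0.56, CD52 by -0.38 and ICAM1 by -0.28. INSIG1 differed by -0.74 with shRNA1 (-0.54 against scrambled replicate 1 alone) and -0.91 with shRNA2, and the median over the cholesterol genes was -0.19 and -0.21, with -0.058 between wild type and scrambled cells. CYTL1, a secreted cytokine-like protein, lay at 8.0, 8.03 and 8.82 in controls, 8.23 and 10.49 in shRNA1 and 12.16 in shRNA2 cells, so it varied within shRNA1 cells and differed by 0.93 and 4.16. The 1 gene called was MEST, an imprinted gene expressed from the paternal copy, which is singled out for its values. MEST lay at 7.75 in shRNA2 cells and between 10.80 and 11.18 in the 5 other untreated arrays. The difference from wild type was -3.29 (limma adjusted p = 0.00338), against 0.08 for shRNA1 minus scrambled, and compares 1 array with 1 array. The spread behind that p comes from the duplicated lines, so it does not cover variation between cultures of shRNA2 or wild type cells. In the 6 ATRA arrays MEST lay between 10.11 and 10.42. The array of shRNA2 cells also held other extreme values, named here after they were seen, none of which was called. SLCO4C1, an organic anion transporter, lay at 5.43 there against 10.48 in wild type, 8.40 and 8.80 in scrambled and 8.74 and 10.12 in shRNA1 cells, and the chemokine CCL2 at 8.23 against 11.03 to 12.62. VIM, the intermediate filament vimentin, lay at 12.07 there against 8.24 to 10.30 in the other 5 untreated arrays.

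**Figure D5:**
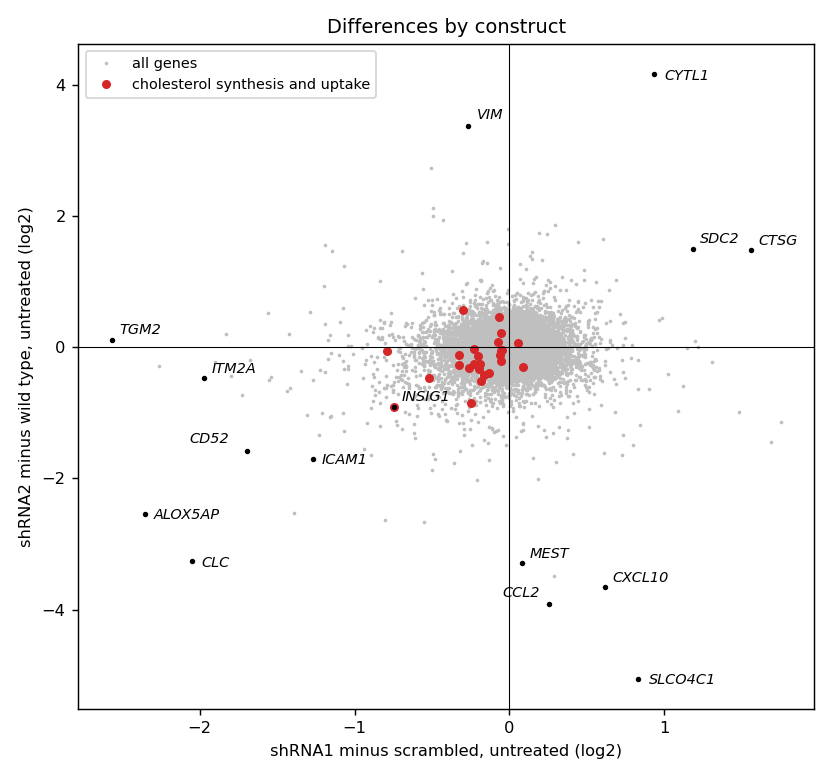
Differences before ATRA for all 18404 genes (log2): shRNA1 minus scrambled on the horizontal axis, 2 arrays each, and shRNA2 minus wild type on the vertical axis, 1 array each. Red points are the 25 cholesterol genes and black points are named genes; CLC, ALOX5AP, CD52 and ICAM1 lie low on both axes, while MEST lies at -3.29 on the vertical axis alone and TGM2 at -2.57 on the horizontal axis alone (-0.29 against scrambled replicate 1 alone).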

How the data were processed

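Total RNA of NB4 cells was hybridised to Affymetrix Gene ST arrays. The deposited values are log2 expression, made by the authors with RMA and limma, per the submitters' processing notes, which give no versions, and were used without further normalization. They ran from 2.67 to 14.63. Of 32321 probe sets, the platform annotation gave 19158 a single gene, 1388 several and 11775 none. For the 637 genes measured more than once, the probe set with the highest mean was kept, which left 18404 genes and no filter on level. Tests used limma 3.58.1 (R 4.3.3; lmFit, eBayes) on 4 arm means over all 12 arrays, with 8 residual degrees of freedom, two-sided, adjusted by Benjamini-Hochberg, threshold 0.05. Constructs were compared in a fit of the means of each construct and state, with 4 residual degrees of freedom. The code was tested on simulated data. Named genes were those with the largest differences without overlap, the smallest p, the leading members of each list, the extremes of scrambled replicate 2 and those moving alike with both constructs. The comparison, lists and rules were chosen with earlier results of these data known. Alternatives left out each array, weighted arrays, changed the variance prior, normalization, level filter or probe set rule, or used the replicate number as a block. Probe sets with several genes or none (13163) gave 0 calls in the same test, with a smallest adjusted p of 0.9998.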

Additional observations from a re-analysis of the deposited data

Results flagged for a closer look

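MEST was singled out for its value in 1 array. The difference shRNA1 minus scrambled exceeded shRNA2 minus wild type by 3.38 on the log2 scale (SE 0.229, limma adjusted p = 0.0127), because MEST lay at 7.75 in the single untreated shRNA2 array and at 11.10 and 11.04 in shRNA1 cells. It rests on that array, the only one of untreated shRNA2 cells analysed here. The SE and p take their spread from the duplicated lines and so do not cover variation between shRNA2 cultures.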

How the results depend on the processing

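No gene passed the main test under any of the 14 alternatives, whose smallest adjusted p ran from 0.124 with array weights to 0.9998 without scrambled replicate 2. Array weights gave wild type cells 4.28 and scrambled replicate 2 0.379, and 1667 genes then had an unadjusted p under 0.05. Leaving out each untreated array in turn gave 428 to 1495 such genes and a median of -0.23 to -0.14 over the cholesterol genes, the latter without scrambled replicate 1. On scrambled and shRNA1 duplicates alone, 508 genes had an unadjusted p under 0.05 with the replicate block and 495 without it, 0 were called with either, and 2 cholesterol genes had an unadjusted p under 0.05 with the replicate block and 2 without it. The differences between duplicates, replicate 1 minus replicate 2, had an r of -0.053 between scrambled and shRNA1 cells. Because scrambled replicate 2 stood apart, this r cannot show whether the replicate numbers pair these arrays. The other results kept their side of the threshold under the replicate block. MEST reversed to 0.083 with the replicate block, 0.083 on the same arrays without it and 0.065 without shRNA2, and ran from -1.61 to 0.065 over arrays left out. Of the values of single genes and of lists other than cholesterol under alternatives, 731 stayed within their side or spread, 2 moved (the medians of granule genes and integrins with array weights) and 3 reversed (MEST). A single gene counted as staying unless its sign changed or it was called. The 731 therefore include large changes in size, such as TGM2 from -1.68 to -0.13 without scrambled replicate 2.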
